A study of Mus musculus with 22 samples.

Results

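Kupffer cells are the resident macrophages of the liver, and 10 genes that mark them are described here across a mouse liver expression series. The genes were Marco, Csf1r, Clec4f, Timd4, Cd5l, Vsig4, Fcna, Adgre1, C1qa and Cd68, of 28034 gene names on the array, and every probe filed under one of these symbols was taken, with Adgre1 filed as Emr1. They were read by 13 of 41174 probes, since Csf1r had 3 probes and Adgre1 had 2. The series compared livers lacking Tcf7l2 by their labels with control livers. Tcf7l2 is a DNA-binding partner of beta-catenin in the Wnt pathway. Liver RNA of 22 mice was hybridised, 1 array per mouse, on 2-colour arrays beside a common mouse reference RNA, and each value is the log2 ratio of liver over reference.

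The adults were C57BL/6 mice with loxP-flanked Tcf7l2 on both alleles, and all of them received tamoxifen at 3 weeks of age, controls included. Knockouts, named LTCF4KO in the labels, carried the tamoxifen-activated recombinase SA-CreERT2 and controls did not, and livers were taken 1 to 2 months later. Fasted adults had 24 h without food (4 knockouts and 4 controls), and fed adults had food (3 knockouts and 3 controls). Newborns were Tcf7l2-/- (4 mice, called knockout) or Tcf7l2+/+ (4 mice, called wild type), received 50 ul of 10% glucose under the skin and gave their livers 5 h after birth. The newborn knockout lacked the gene in all cells of the body by its label, whereas the cells in which SA-CreERT2 acts are not stated in the sources used here.

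Kupffer cells settle in the fetal liver from yolk sac and fetal precursors and, in the adult, line the sinusoids and take up particles, microbes and old red cells from the blood. Their survival depends on the receptor encoded by Csf1r, and their uptake of particles on scavenger and complement receptors such as those encoded by Marco and Vsig4. Whole liver was measured here, so fewer Kupffer cells and less RNA of these genes per cell cannot be told apart.

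Probe sequences are shown for Fcna, Vsig4, C1qa and Clec4f. Each printed probe is the only one of its gene, has 60 bases and shows which stretch of transcript the values come from. They lie on build mm9, per the array files, at chr2:25480749-25480808 (Fcna), chrX:93443157-93443216 (Vsig4), chr4:136452409-136452468 (C1qa) and chr6:83595281-83595339 (Clec4f), all on the minus strand, and each is written 5′ to 3′. The position that the files give for Clec4f spans 1 base less than its probe.
Fcna probe: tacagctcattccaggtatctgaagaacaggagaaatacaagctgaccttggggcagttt
Vsig4 probe: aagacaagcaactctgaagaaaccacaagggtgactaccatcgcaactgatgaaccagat
C1qa probe: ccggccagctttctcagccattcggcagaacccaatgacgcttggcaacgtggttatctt
Clec4f probe: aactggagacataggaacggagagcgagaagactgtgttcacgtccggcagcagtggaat

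The 250 bases before the transcription start were taken from RefSeq on GRCm38.p6 for the 4 genes whose knockout change differed between fed adults and newborns, Marco, Fcna, Vsig4 and Cd5l. Capitals mark, on either strand, GAGGAA, the core bound by the macrophage factor Spi1 (PU.1), TGCTGA, a site shared by Maf factors, and CTTTGA, the core bound by TCF/LEF factors such as the Tcf7l2 protein. Neighbouring matches run together in capitals in Fcna.
Marco, chr1:120505025-120505274, minus strand: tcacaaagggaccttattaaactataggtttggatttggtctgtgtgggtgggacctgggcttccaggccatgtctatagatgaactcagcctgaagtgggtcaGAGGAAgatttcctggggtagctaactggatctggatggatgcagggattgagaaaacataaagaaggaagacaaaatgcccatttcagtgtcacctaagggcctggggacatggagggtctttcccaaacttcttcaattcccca
Fcna, chr2:25627975-25628224, minus strand: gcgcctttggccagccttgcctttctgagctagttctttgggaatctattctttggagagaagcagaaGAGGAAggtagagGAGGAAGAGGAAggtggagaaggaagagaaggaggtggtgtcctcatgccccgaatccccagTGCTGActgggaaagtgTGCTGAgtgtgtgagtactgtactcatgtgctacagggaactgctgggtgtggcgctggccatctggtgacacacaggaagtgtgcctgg
Vsig4, chrX:96293439-96293688, minus strand: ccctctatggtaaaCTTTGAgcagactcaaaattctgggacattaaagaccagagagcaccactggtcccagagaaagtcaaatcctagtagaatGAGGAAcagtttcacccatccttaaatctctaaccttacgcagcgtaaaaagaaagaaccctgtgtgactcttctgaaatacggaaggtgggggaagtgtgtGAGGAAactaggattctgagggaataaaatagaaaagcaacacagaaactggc
Cd5l, chr3:87357631-87357880, plus strand: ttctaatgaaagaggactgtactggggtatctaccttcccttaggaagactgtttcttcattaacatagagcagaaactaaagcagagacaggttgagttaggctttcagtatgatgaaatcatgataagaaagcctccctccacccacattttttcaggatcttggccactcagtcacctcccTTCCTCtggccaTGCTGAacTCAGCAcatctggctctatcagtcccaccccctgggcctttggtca
Such a sequence was read for 7 of the 10 genes, and Csf1r was left out of this search by choice. GAGGAA was found in 5 of these 7, against 23.3% of 32851 promoters of the same length. TGCTGA was found in 4 of 7, against 16.1% of all promoters, and CTTTGA in 1 of 7 (Vsig4), against 13.8% of all promoters. A match describes the letters of these windows and is not a measured binding site.

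The arrays differed in how much of the liver signal stood above background. It was well above background for 50.2% to 62.0% of spots on fasted arrays, 22.8% to 31.2% on fed arrays and 50.2% to 64.4% on newborn arrays. No member probe was saturated. Hepatocyte markers were high in all newborn livers, with a mean log2 ratio over 10 genes of 6.58 to 6.87 in knockouts, against 6.48 to 7.04 in wild types. Timd4 was well above background on 2 of 3 fed knockout arrays and on none of the fed control arrays, and Cd68 on 2 of 3 fed knockout and 1 of 3 fed control arrays. In the reference channel Timd4 was well above background on only 13 of 22 arrays, so its ratios rest on a weak reference signal. The probe used for each other member was so on all 22. All newborn knockouts lay on one slide and all newborn wild types on another, so slide and genotype cannot be told apart in newborns. Adults and newborns shared no slide, so slide and age cannot be told apart. Adults and newborns also differed in how the gene was deleted and in treatment. The best-measured Tcf7l2 probe averaged -1.66 ± 0.13 in newborn knockouts and -0.78 ± 0.40 in newborn wild types (SD, n = 4 each), with a change of -0.87 ± 0.19 (SE, limma adjusted p = 0.0575). Another probe, A_52_P146043, was well above background on all 8 newborn arrays and was not lower, with 0.02 ± 0.12 in knockouts and -0.06 ± 0.17 in wild types (SD, n = 4 each). The last, A_52_P316355, was not well above background on any newborn array. In adults the first probe was not lower in knockouts, with changes of 0.35 ± 0.17 fasted (limma adjusted p = 0.493) and 0.21 ± 0.20 fed (limma adjusted p = 0.999). Which stretch of the gene is deleted in these adults is not stated in the sources used here, so the adult values do not check the labels, and adult knockout below means the label.

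In newborn livers Marco and Csf1r were lower in knockouts than in wild types on the log2 ratio scale, and the Csf1r call lay at the threshold. Marco encodes a scavenger receptor that binds bacteria and particles, and it was 2.53-fold lower. Csf1r encodes the receptor for the growth factors Csf1 and Il34, on which Kupffer cells depend, and it was 1.62-fold lower. In all, 2 of the 10 members fell and none rose (limma with Benjamini-Hochberg adjustment over 17174 genes), where 0.332% of all genes tested fell, 1.12% rose and 1.45% changed in either direction. With a sign but no test, 9 of the 10 changes were below 0 and the median change of the members was -0.63, against -0.01 for all genes tested. The 4 knockouts lay wholly below the 4 wild types for 6 members (Marco, Csf1r, Fcna, Vsig4, Cd5l and Adgre1), against 3.66% of all genes.

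Marco read 5.18, 5.23, 4.80 and 5.58 in the newborn knockouts, against 6.55, 6.41, 6.43 and 6.76 in the wild types. The groups did not overlap, and the change was -1.34 ± 0.17 (SE, limma adjusted p = 0.00812). It passed the threshold in each of the 8 fits that left out 1 newborn, with adjusted p between 0.0109 and 0.0327 in limma. The call was lost with marked local backgrounds kept (-1.38 ± 0.31, SE, adjusted p = 1) and in the limma fit of all 22 arrays (-1.34 ± 0.39, SE, adjusted p = 0.0846).

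Csf1r read 1.38, 0.80, 1.23 and 1.17 in the newborn knockouts, against 1.92, 1.65, 1.95 and 1.84 in the wild types, on the probe that was brightest. The groups did not overlap, and the change was -0.70 ± 0.14 (SE, limma adjusted p = 0.0495). This call was lost in each of the 8 fits that left out 1 newborn, with limma adjusted p between 0.0602 and 0.172 and changes between -0.78 and -0.58. It was also lost with processed signals (limma adjusted p = 0.0515), all probes tested (0.0533), a filter on both channels (0.058), median centring (0.175), the liver channel alone (0.657) and marked backgrounds kept (1). A different Csf1r probe, A_52_P602091, averaged 0.91 ± 0.04 in knockouts and 1.69 ± 0.31 in wild types (SD, n = 4 each), a change of -0.78 ± 0.15 (SE, limma adjusted p = 0.0455 with all probes tested). The last Csf1r probe, A_52_P570471, averaged 0.06 ± 0.08 in knockouts and 0.17 ± 0.13 in wild types (SD, n = 4 each) and was well above background on 3 knockout arrays and 1 wild-type array.

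Fcna encodes ficolin A, a lectin that starts the complement cascade on sugar-coated surfaces. It read 3.68, 2.30, 2.83 and 3.59 in the newborn knockouts, against 4.57, 4.33, 4.61 and 4.38 in the wild types. No knockout reached the lowest wild type, and the knockouts were spread more widely (SD 0.66) than the wild types (SD 0.14). The change was -1.37 ± 0.28 (SE), as large as that of Marco, and it missed the threshold with a limma adjusted p of 0.0502.

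Vsig4 encodes the complement receptor CRIg, with which Kupffer cells catch bacteria from the blood. It read 3.03, 3.86, 3.90 and 3.97 in newborn knockouts, against 4.23, 4.71, 4.59 and 4.62 in wild types, and knockout 1 lay apart below the other knockouts. Its change of -0.85 ± 0.21 (SE) had a limma adjusted p of 0.095. Cd5l encodes a secreted scavenger protein that keeps macrophages alive and circulates with IgM. It read 6.51, 6.60, 6.23 and 6.87 in knockouts, against 7.41, 6.98, 7.01 and 7.52 in wild types, without overlap, and its change was -0.68 ± 0.18 (SE, limma adjusted p = 0.103). Adgre1 encodes the surface protein by which mouse macrophages are usually sorted. It averaged 0.97 ± 0.32 in knockouts and 1.56 ± 0.17 in wild types (SD, n = 4 each), with a limma adjusted p of 0.129. The other Adgre1 probe, A_52_P364727, averaged 0.48 ± 0.24 in knockouts and 0.89 ± 0.24 in wild types (SD, n = 4 each). Its change was -0.41 ± 0.16 (SE, limma adjusted p = 0.308 with all probes tested).

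The remaining 4 members had ranges that overlapped between newborn knockouts and wild types. Clec4f encodes a galactose-binding lectin found in mouse on Kupffer cells, and it averaged 5.52 ± 0.39 in knockouts and 5.83 ± 0.16 in wild types (SD, n = 4 each, limma adjusted p = 0.553). C1qa encodes a chain of the complement protein C1q and averaged 4.49 ± 0.39 in knockouts and 4.61 ± 0.20 in wild types (SD, n = 4 each, limma adjusted p = 0.879). Cd68 encodes a glycoprotein of macrophage lysosomes and averaged -1.41 ± 0.38 in knockouts and -0.94 ± 0.20 in wild types (SD, n = 4 each, limma adjusted p = 0.313). Timd4 encodes Tim-4, a receptor for dying cells that marks resident macrophages, and it averaged 2.70 ± 0.39 in knockouts and 2.61 ± 0.23 in wild types (SD, n = 4 each, limma adjusted p = 0.924).

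**Figure D1:**
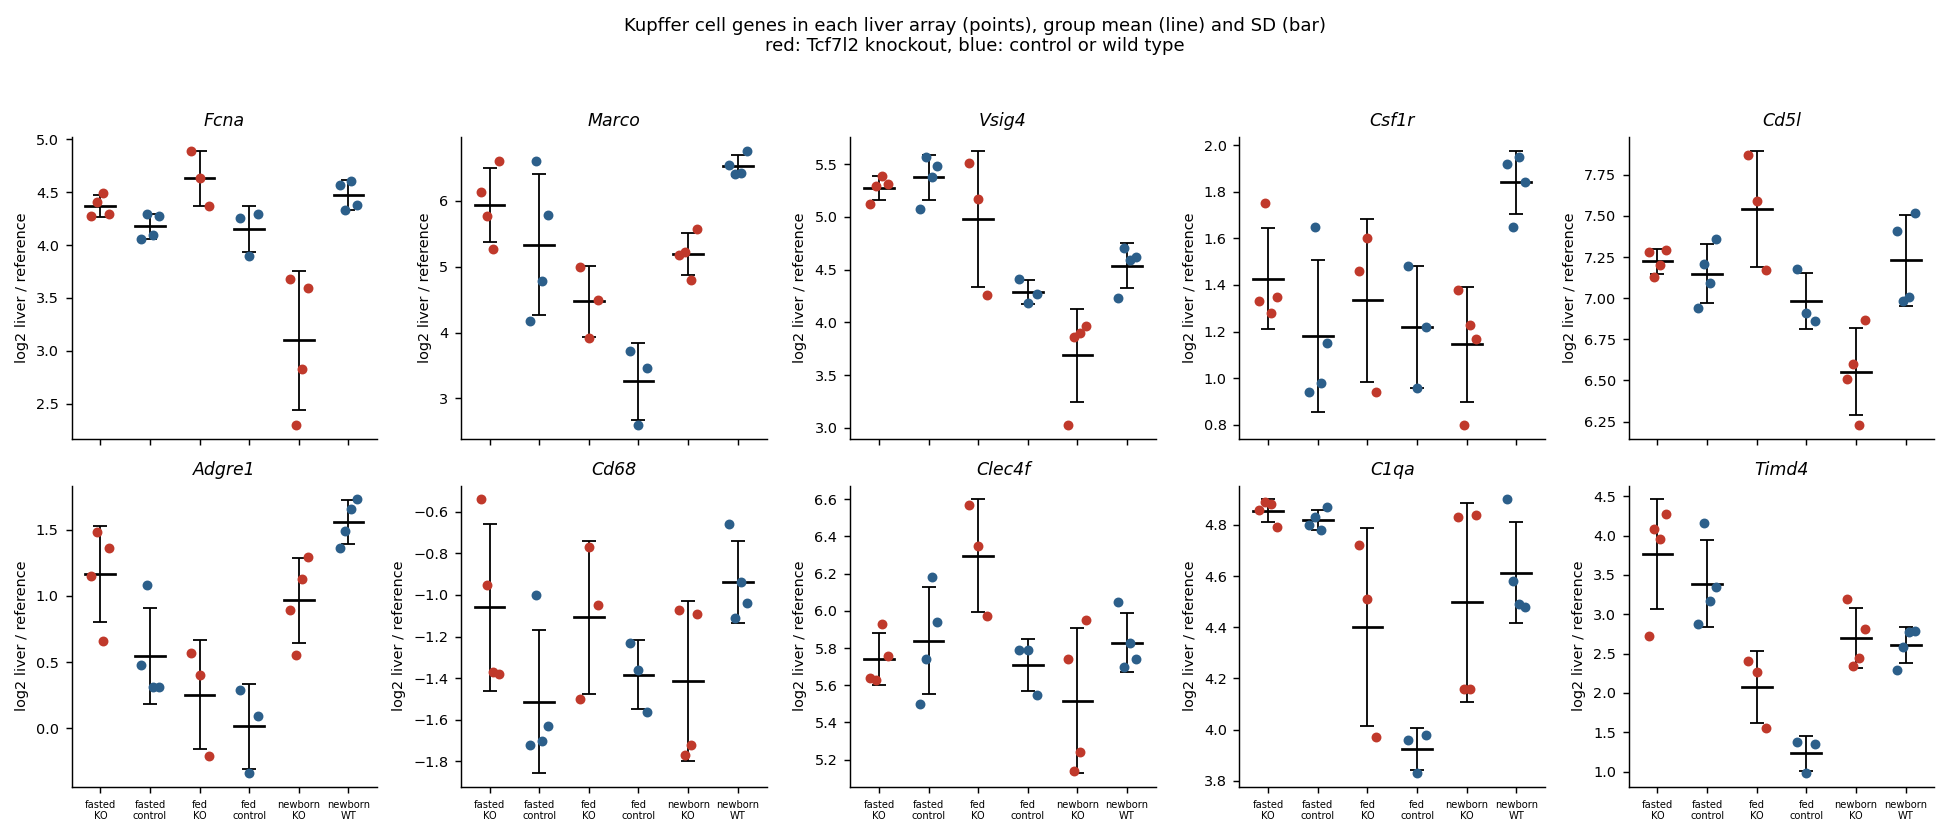
Log2 ratio of liver over reference RNA for the 10 genes, 1 panel per gene and 1 point per array, in knockouts (red) and controls or wild types (blue) of each age and feeding state, with the group mean as a line and the SD as a bar. In newborns the red points lie wholly below the blue ones for Fcna, Marco, Vsig4, Csf1r, Cd5l and Adgre1, and in fed adults they lie wholly above for Marco, Fcna, Clec4f and Timd4.

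The 4 newborn knockouts did not read alike for these overlapping genes. C1qa read 4.83 and 4.84 in knockouts 1 and 4 and 4.16 in each of knockouts 2 and 3, against 4.48 to 4.90 in wild types. Clec4f read 5.74 and 5.95 in knockouts 1 and 4 and 5.14 and 5.24 in knockouts 2 and 3, against 5.70 to 6.05 in wild types. Cd68 read -1.07 and -1.09 in knockouts 1 and 4 and -1.77 and -1.72 in knockouts 2 and 3, against -1.11 to -0.66 in wild types. Knockouts 1 and 4 thus read within the wild-type range for C1qa, Clec4f and Cd68, and knockouts 2 and 3 below it. Timd4 differed from this, with 3.19 and 2.81 in knockouts 1 and 4, above the wild-type range of 2.29 to 2.79. Its values of 2.34 and 2.45 in knockouts 2 and 3 lay within that range. The mean over the 10 members was 3.34, 2.92, 3.02 and 3.50 in knockouts 1 to 4, against 3.86, 3.73, 3.84 and 3.88 in the wild types, so every knockout lay below every wild type on that mean.

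Because each value is a ratio, the channels were also read alone. In the liver channel 5.18% of all genes were called and 0.745% were lower, and 5 members were lower in newborn knockouts: Fcna (-1.81 ± 0.34), Cd5l (-1.20 ± 0.21), Marco (-1.08 ± 0.19), Vsig4 (-0.85 ± 0.17) and Adgre1 (-0.81 ± 0.18, SE, limma adjusted p between 0.0212 and 0.0377). Csf1r was not among them, with -0.35 ± 0.35 in the liver channel and 0.38 ± 0.37 in the reference channel. For Csf1r, newborn wild type 1 had a normalized log2 liver signal of 10.59, against 11.9, 12.28 and 12.38 in the other wild types. Knockouts 1 to 4 had 11.54, 11.28, 11.52 and 11.64. The Csf1r ratio of wild type 1, 1.92, lay within the range of the other wild types. The part of that array in the single-channel values was not tested. The reference RNA was meant to be alike on all arrays, yet 2503 genes, 14.6% of those tested, differed in that channel between the knockout slide and the wild-type slide. Among them were Cd5l (-0.94 ± 0.10), C1qa (-0.56 ± 0.13), Fcna (-0.51 ± 0.12), Vsig4 (-0.45 ± 0.10) and Timd4 (0.33 ± 0.09, SE, limma adjusted p between 0.000781 and 0.0374). Marco (0.11 ± 0.13) and Adgre1 (-0.19 ± 0.11) were not. The part of the reference channel in the ratios was not tested.

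**Figure D2:**
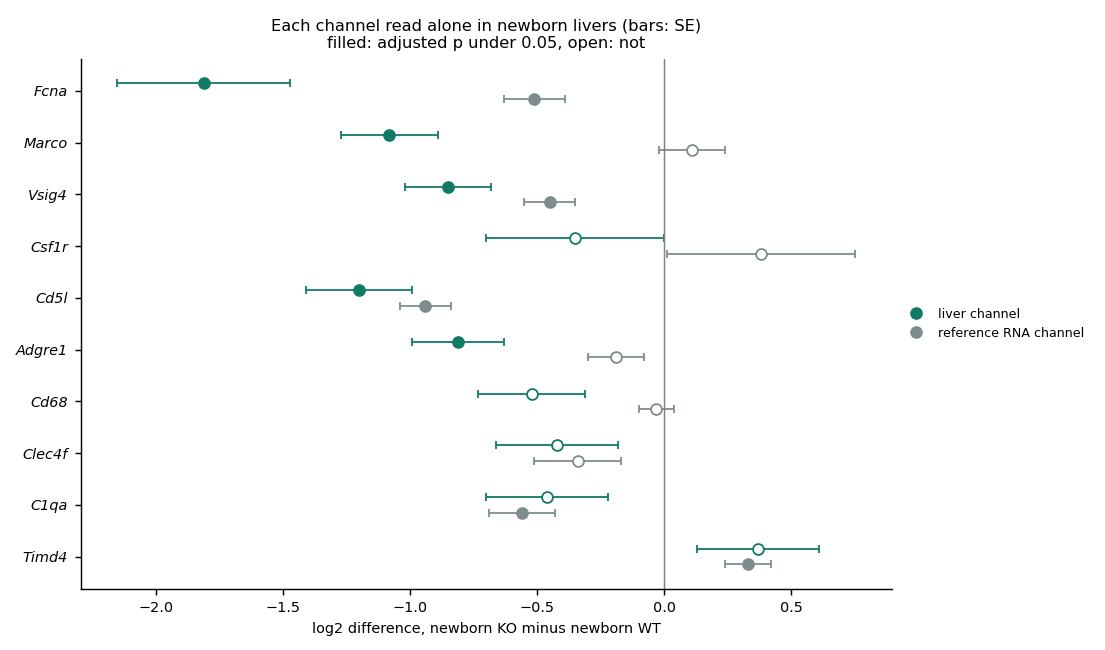
Difference of newborn knockouts minus newborn wild types in each channel read alone, liver (green) and reference RNA (grey), with SE bars, filled where the limma adjusted p is under 0.05. Marco fell by 1.08 in the liver channel with a reference difference of 0.11, whereas Cd5l differed by -1.20 in the liver and -0.94 in the reference channel.

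In fasted adults none of the 10 members passed the threshold between knockouts and controls, where 0.495% of all genes did in either direction (limma). An unadjusted limma p under 0.05 was reached by 1 member (Adgre1), against 1914 of 17187 genes, which is a similar share. The changes were above 0 for 8 members, with a median of 0.22, against 0.01 for all genes, and the groups of no member were apart, against 6.52% of all genes. Marco read 6.13, 5.77, 5.27 and 6.60 in fasted knockouts, against 4.18, 6.60, 4.79 and 5.78 in fasted controls. The controls spanned more than 2 log2 units and overlapped the knockouts, and the change was 0.61 ± 0.47 (SE, limma adjusted p = 0.704). Fcna read 4.27, 4.41, 4.49 and 4.29 in fasted knockouts, against 4.06, 4.29, 4.09 and 4.27 in fasted controls (limma adjusted p = 0.651). Adgre1 averaged 1.16 ± 0.36 in fasted knockouts and 0.55 ± 0.37 in fasted controls (SD, n = 4 each, limma adjusted p = 0.344). The other Adgre1 probe, A_52_P364727, changed by 0.04 ± 0.24 (SE, limma adjusted p = 0.981 with all probes tested). Within the slides that each held 2 fasted knockouts and 2 fasted controls, the median change of the members was 0.14 for slide 3 and 0.23 for slide 4.

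In fed adults none of the members passed the threshold either, where 0.221% of all genes did, and 6 members had an unadjusted p under 0.05, against 1227 of 17187 genes (limma). All 10 changes were above 0, with a median of 0.52, against 0.03 for all genes. The 3 knockouts lay wholly above the 3 controls for 4 members (Marco, Fcna, Clec4f and Timd4), against 7.09% of all genes, and the exact permutation test for such a gene gives the smallest p that 3 against 3 allows, 0.1. Marco read 5.00, 3.92 and 4.50 in fed knockouts, against 3.72, 2.60 and 3.46 in fed controls, and its change was 1.21 ± 0.54 (SE, limma adjusted p = 0.68). Fcna read 4.89, 4.63 and 4.37 in fed knockouts, against 4.26, 3.90 and 4.29 in fed controls, and its change was 0.48 ± 0.15 (SE, limma adjusted p = 0.383). Vsig4 read 5.51, 5.17 and 4.26 in fed knockouts, against 4.41, 4.18 and 4.27 in fed controls, with knockout 3 inside the control range. Without fed knockout 3, Vsig4 (1.05 ± 0.16), C1qa (0.69 ± 0.10) and Cd5l (0.75 ± 0.15, SE) were called higher (limma adjusted p between 0.0105 and 0.0492). That array was the only fed knockout on slide 6. Over the 6 fits that left out 1 fed array, 0 to 3 members were called. How many of all genes were called in those fits is not given here, so these calls have no background to be read against. Within slide 5, which held 2 knockouts and 1 control, the members' median change was 0.61. Within slide 6, which held 1 knockout and 2 controls, it was 0.28.

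**Figure D3:**
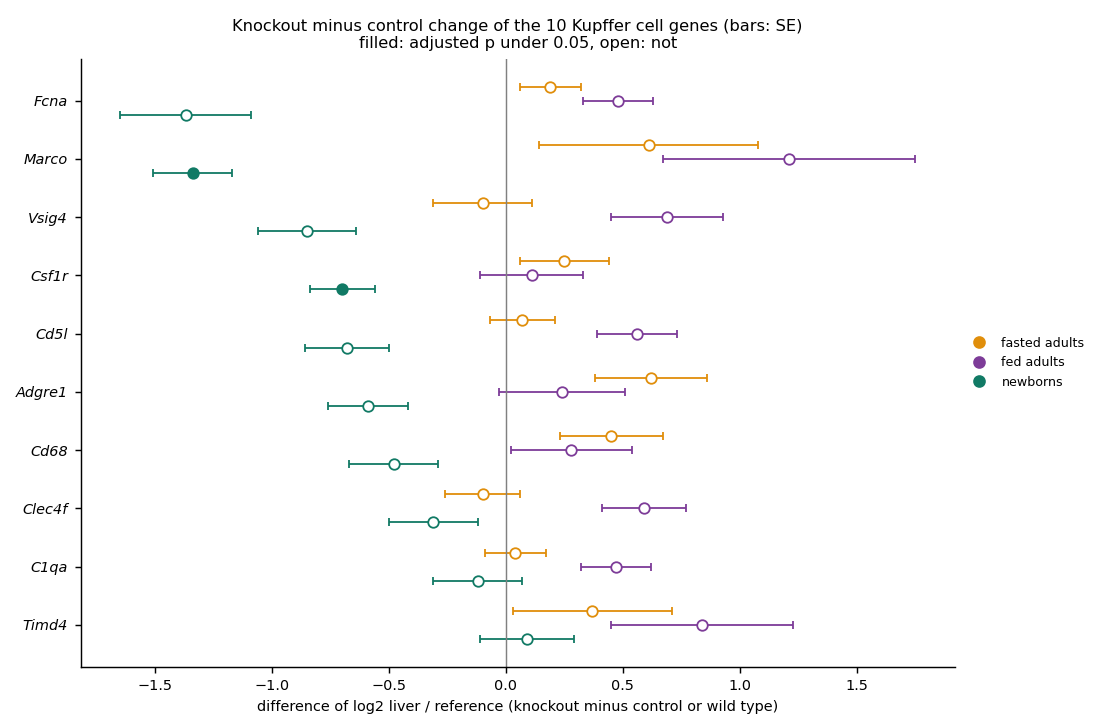
Change of each gene in knockouts relative to controls or wild types, as a difference of log2 ratios with its SE, in fasted adults (orange), fed adults (purple) and newborns (green), filled where the limma adjusted p is under 0.05. Filled points are those of Marco and Csf1r in newborns. Green points lie left of 0 for 9 of 10 genes and purple points right of 0 for all 10.

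The knockout change in adults was then set against that in newborns. How the gene was deleted, treatment, slide and age all differ between the 2 and cannot be told apart. The comparison was made as a difference of changes in a fit of all 22 arrays. Each such difference was above 0 for the 10 members, which means a knockout change less negative, or more positive, in adults than in newborns. For fasted adults minus newborns the median was 0.84, against 0.01 for all genes, and 1 member passed the threshold, where 0.196% of all genes were higher, 0.831% were lower and 1.03% differed. That member was Fcna, with a difference of 1.56 ± 0.30 (SE, limma adjusted p = 0.0122). Its changes were 0.19 in fasted adults and -1.37 in newborns. Marco had the largest difference of the 10, 1.95 ± 0.56 (SE), with a limma adjusted p of 0.116, and Adgre1 (1.21 ± 0.31) had 0.0691 and Csf1r (0.95 ± 0.25) 0.0876. The other Adgre1 probe, A_52_P364727, differed by 0.45 ± 0.31 (SE, limma adjusted p = 0.711 with all probes tested).

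For fed adults minus newborns the median difference was 0.87, against 0.03 for all genes, and 4 members passed, where 0.302% of all genes were higher, 0.619% were lower and 0.92% differed. They were Fcna (1.85 ± 0.33, adjusted p = 0.00649), Cd5l (1.24 ± 0.25, adjusted p = 0.0171), Vsig4 (1.54 ± 0.34, adjusted p = 0.0296) and Marco (2.55 ± 0.60, adjusted p = 0.0461, all SE and limma). The newborn change entered both differences, so they share the newborn arrays. Fcna passed in each of the 16 fasted and 14 fed fits that left out 1 array. Cd5l missed the threshold without fed control 3 (limma adjusted p = 0.0503), Vsig4 was called in 8 of 14 such fits, and Marco in 2 of 14, with differences between 2.22 and 2.83. In the liver channel alone, where 1.16% of all genes were called with fasted and 2.29% with fed adults, Fcna differed by 2.05 ± 0.35 in fasted and 2.22 ± 0.38 in fed adults minus newborns (SE, limma adjusted p = 0.00701 and 0.00502), whereas Marco (1.78 ± 0.80), Cd5l (1.75 ± 0.61) and Vsig4 (1.11 ± 0.30, SE) missed the threshold for fed adults. Adgre1 was called in that channel, with 1.15 ± 0.27 for fasted and 1.13 ± 0.29 for fed adults (SE, limma adjusted p = 0.045 and 0.0463). The reference channel, where 6.23% of all genes were called with fasted and 12.6% with fed adults, differed too, for Fcna by 0.57 ± 0.14 with fasted and 0.65 ± 0.15 with fed adults, for Cd5l by 1.47 ± 0.39 and Vsig4 by 0.62 ± 0.16 with fasted adults (SE, limma adjusted p between 0.00785 and 0.0308). Its part in these differences was not tested. With marked local backgrounds kept as deposited, none of the 10 was called in either difference or in newborns.

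Adult and newborn levels differed for most genes, so a call on a member is close to the background. In controls, fasted adults had 6 of 10 members called against newborn wild types, where 55.7% of all genes were called, 26.1% higher and 29.6% lower (limma). Higher in fasted controls were Vsig4 (0.84 ± 0.22) and Timd4 (0.78 ± 0.30, SE). Lower were Marco (-1.20 ± 0.39), Adgre1 (-1.01 ± 0.22), Csf1r (-0.66 ± 0.18) and Cd68 (-0.58 ± 0.22, SE), with limma adjusted p between 0.000507 and 0.0345 over these 6. Marco missed the threshold without fasted control 1 (-0.82, limma adjusted p = 0.071), Cd68 in 5 and Timd4 in 4 of the 8 fits that left out 1 array. Some of these directions turned with the processing. Vsig4 was -0.61 with marked backgrounds kept and -0.56 with scaling between arrays, and Timd4 was -0.43 and -0.02 under those settings. Read in the liver channel alone, Csf1r was 0.09 ± 0.29, Timd4 0.23 ± 0.24 and Cd68 -0.20 ± 0.30 (SE, limma adjusted p between 0.448 and 0.819). That Csf1r value includes newborn wild type 1, with its low liver signal of 10.59. Clec4f averaged 5.84 ± 0.29 in fasted controls and 5.83 ± 0.16 in newborn wild types (SD, n = 4 each), and Cd5l averaged 7.15 ± 0.18 in fasted controls and 7.23 ± 0.28 in newborn wild types, so neither moved beyond its spread.

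Fed controls had 5 members called against newborn wild types, all lower, where 57.7% of all genes were called, 25.4% higher and 32.3% lower. Marco was 9.67-fold lower, with 3.72, 2.60 and 3.46 in fed controls, against 6.41 to 6.76 in newborn wild types (change -3.27 ± 0.43, SE, limma adjusted p = 1.53e-06). Adgre1 was 2.92-fold lower, C1qa 1.61-fold and Csf1r 1.54-fold, with limma adjusted p up to 0.00921. The other Adgre1 probe, A_52_P364727, was not well above background on any fed control array and read 0.29 ± 0.24 (SE, limma adjusted p = 0.324 with all probes tested). Timd4 was not well above background on any fed control array and was at least 1.29-fold lower (limma adjusted p = 0.00126), with means of 1.24 in fed controls and 2.61 in newborn wild types. Timd4 (-0.37 ± 0.26) and Csf1r (-0.62 ± 0.31, SE) were not called in the liver channel alone (limma adjusted p = 0.229 and 0.101), and C1qa was 0.10 with processed signals. In the liver channel alone Marco was lower than in newborn wild types in both fasted (-3.24 ± 0.53) and fed controls (-3.89 ± 0.57, SE, limma adjusted p up to 2.92e-05). The reference channel for Marco was lower as well, by -1.71 ± 0.21 on fasted and -0.78 ± 0.23 on fed control arrays (SE, limma adjusted p up to 0.0121), and its part was not tested.

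Among knockouts most calls were higher in adults, whereas most calls among controls were lower. Single genes did not turn direction between genotypes. Vsig4 and Timd4 were called higher in fasted adults of both genotypes, and Adgre1 lower in fed adults of both. Fasted knockouts had 4 members called against newborn knockouts, all higher, where 57.3% of all genes were called, 26.9% higher and 30.4% lower. They were Vsig4 (1.59 ± 0.22), Fcna (1.27 ± 0.21), Timd4 (1.06 ± 0.30) and Cd5l (0.67 ± 0.16, SE, limma adjusted p up to 0.00502). Fed knockouts had 5 called against newborn knockouts, where 59.5% of all genes were called, 26.7% higher and 32.7% lower. Fcna (1.53 ± 0.23), Vsig4 (1.29 ± 0.24), Cd5l (0.99 ± 0.18) and Clec4f (0.78 ± 0.19) were higher and Adgre1 was lower (-0.71 ± 0.24, SE, limma adjusted p up to 0.0135). The Adgre1 call was lost without fed knockout 3 (-0.48, limma adjusted p = 0.11). The other Adgre1 probe, A_52_P364727, read 0.56 ± 0.24 (SE, limma adjusted p = 0.0538 with all probes tested) and was not well above background on any fed array. With scaling between arrays Cd5l was -1.36, Clec4f -1.18 and Vsig4 -0.15 for fed knockouts, Fcna was 0.23 without a call, and Cd5l was -0.16 for fasted knockouts. With median centring Cd5l was -0.03 and Clec4f -0.20 for fed knockouts. Calls were lost in the liver channel alone for Clec4f (0.30 ± 0.24) and Adgre1 in fed and Timd4 in fasted knockouts. Fcna thus averaged 4.36 ± 0.10 in fasted knockouts and 4.63 ± 0.26 in fed knockouts, against 3.10 ± 0.66 in newborn knockouts. Among controls Fcna averaged 4.18 ± 0.12 fasted and 4.15 ± 0.22 fed, against 4.47 ± 0.14 in newborn wild types (SD, n = 3 for fed groups and 4 for others), with no call at either feeding state.

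**Figure D4:**
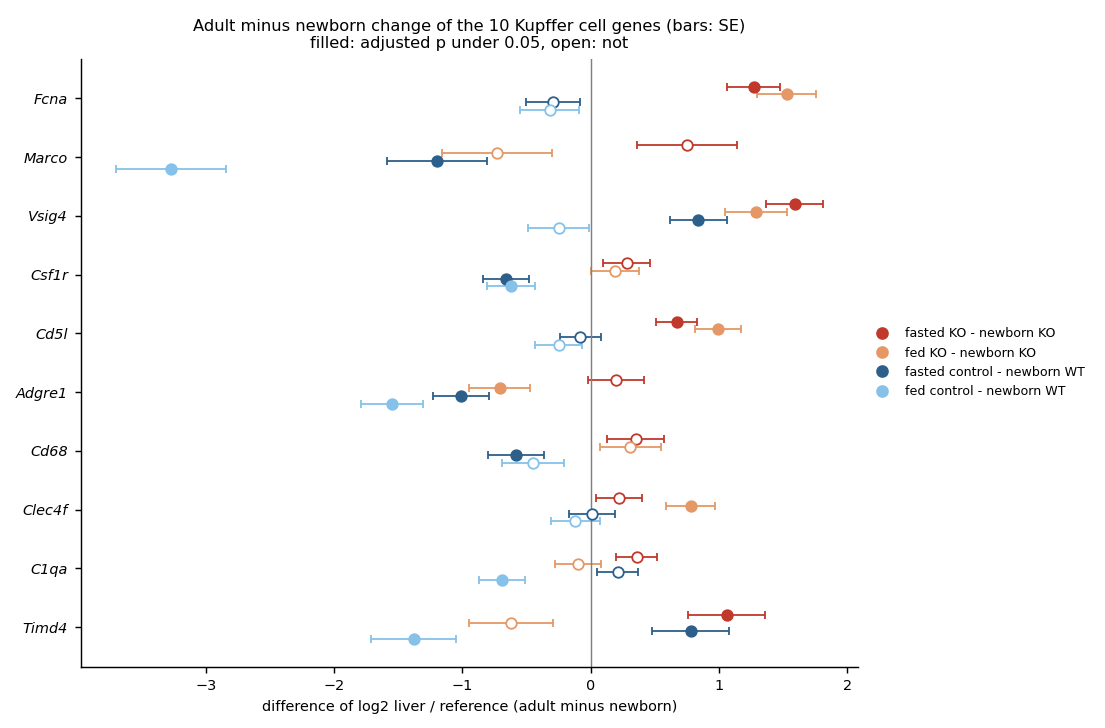
Adult minus newborn difference of each gene as log2 ratios with SE, for fasted (red) and fed (orange) knockouts against newborn knockouts and fasted (dark blue) and fed (light blue) controls against newborn wild types, filled where the limma adjusted p is under 0.05. For all 10 genes the knockout point lies right of the control point of the same feeding state. Marco in fed controls is the lowest point, at -3.27.

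Fasting was set against feeding within each genotype, where the fed arrays had fewer spots above background. In controls 4 members were higher after the fast, where 36.8% of all genes were called, 20.2% higher and 16.6% lower (limma). Timd4 was at least 1.66-fold higher, Marco was 4.21-fold higher (2.07 ± 0.51), Vsig4 2.13-fold (1.09 ± 0.23) and C1qa 1.86-fold (0.89 ± 0.14, SE, limma adjusted p between 0.000449 and 0.00675). In the liver channel alone Marco was 0.66 ± 0.67, Timd4 0.60 ± 0.24 and Vsig4 0.33 ± 0.22 without a call (SE, limma adjusted p between 0.0621 and 0.467), and C1qa was 0.68 ± 0.25 (limma adjusted p = 0.0462). In the reference channel Marco differed by -0.93 ± 0.26 and Vsig4 by 0.68 ± 0.12 (SE, limma adjusted p = 0.00755 and 0.00043). With marked backgrounds kept none was called, Vsig4 was -1.01 and C1qa -0.62. Fcna averaged 4.18 ± 0.12 in fasted controls (n = 4) and 4.15 ± 0.22 in fed controls (SD, n = 3). In knockouts 5 members were called, where 35.7% of all genes were, 18.6% higher and 17.1% lower. Timd4 (1.69 ± 0.37), Marco (1.47 ± 0.51), Adgre1 (0.91 ± 0.25) and C1qa (0.46 ± 0.14) were higher after the fast and Clec4f was lower (-0.56 ± 0.17, SE, limma adjusted p between 0.0036 and 0.038). The other Adgre1 probe, A_52_P364727, went the other way, with -1.07 ± 0.26 in knockouts and -1.25 ± 0.26 in controls (SE). Its limma adjusted p was 0.0075 and 0.00261 with all probes tested, and it was not well above background on any fed array. Liver channel values alone were 0.10 ± 0.21 for Adgre1, 0.10 ± 0.21 for Clec4f, 0.82 ± 0.67 for Marco and 0.36 ± 0.24 for Timd4, without a call (SE, limma adjusted p between 0.273 and 0.754). In the reference channel Adgre1 differed by -0.82 ± 0.12 and Clec4f by 0.51 ± 0.16 (SE, limma adjusted p = 9.37e-05 and 0.0153), where 10212 genes differed between fasted and fed control arrays and 9599 between fasted and fed knockout arrays. The part of the reference channel was not tested. With scaling between arrays Clec4f was 0.70, and with processed signals C1qa was -0.13. The Marco call in knockouts was lost without fasted knockout 1, 2 or 4 or fed knockout 2 or 3, with changes between 1.19 and 1.73 over the 7 such fits.

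Other genes of the Kupffer cell and of neighbouring cell types were read from lists, to place the members in the newborn comparison. Of 15 other Kupffer cell genes, 1 fell and none rose, 13 changes were below 0 and the median was -0.42. The gene that fell was Spic, which encodes a transcription factor of iron-recycling macrophages and averaged 2.74 ± 0.06 in knockouts and 3.93 ± 0.33 in wild types (SD, n = 4 each, change -1.20 ± 0.16 SE, limma adjusted p = 0.0102). Siglec1, the sialic acid receptor of resident macrophages, averaged 0.77 ± 0.17 in knockouts and 1.87 ± 0.60 in wild types (SD, n = 4 each, limma adjusted p = 0.0822). Slc40a1, the iron exporter ferroportin, averaged 3.90 ± 0.15 in knockouts and 4.41 ± 0.09 in wild types (SD, n = 4 each, limma adjusted p = 0.0596).

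None of the 12 tested genes listed under Csf1r signalling passed, with a median change of 0.01. That list also holds Csf2ra and Csf3r, which are receptors for other growth factors. The Csf1r ligand Csf1 averaged -1.80 ± 0.07 in newborn knockouts and -2.19 ± 0.15 in wild types (SD, n = 4 each, limma adjusted p = 0.115). None of 16 scavenger and pattern recognition receptors passed (median -0.19), nor did any of 17 genes shared by phagocytes in general (median -0.11). The lysosomal membrane gene Lamp1 averaged -0.26 ± 0.09 in knockouts and -0.13 ± 0.04 in wild types (SD, n = 4 each, limma adjusted p = 0.673).

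None of the tested markers of other cells that a newborn liver holds passed in the newborn comparison, and the difference between lists was not tested. Of 10 monocyte markers, 8 were above 0 (median 0.14). Among these, Ifitm6 averaged 4.93 ± 0.15 in knockouts and 4.17 ± 0.35 in wild types, whereas Cx3cr1 averaged 0.13 ± 0.23 in knockouts and 1.06 ± 0.45 in wild types (SD, n = 4 each, limma adjusted p = 0.0732 and 0.079). Neutrophil and precursor markers had a median of -0.02 over 12 genes, and lymphocyte markers -0.10 over 10, with single changes as low as -1.42 ± 0.57 (Gzma, SE, limma adjusted p = 0.31). Erythroid markers, from the blood formation that goes on in newborn liver, were below 0 in 13 of 14 (median -0.27). Stellate cell markers were below 0 in 9 of 10, with a median of -0.47, lower than that of the other Kupffer cell genes. Sinusoidal endothelial markers were below 0 in 9 of 10 (median -0.22, with Kdr at -0.98) and hepatocyte markers in 9 of 10 (median -0.16). The mean log2 ratio over the stellate list spanned 0.48 to 0.95 in knockouts, against 0.64 to 1.46 in wild types, and that over the 10 members 2.92 to 3.50 in knockouts, against 3.73 to 3.88 in wild types. The part of these other cell types in the members' changes was not tested.

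**Figure D5:**
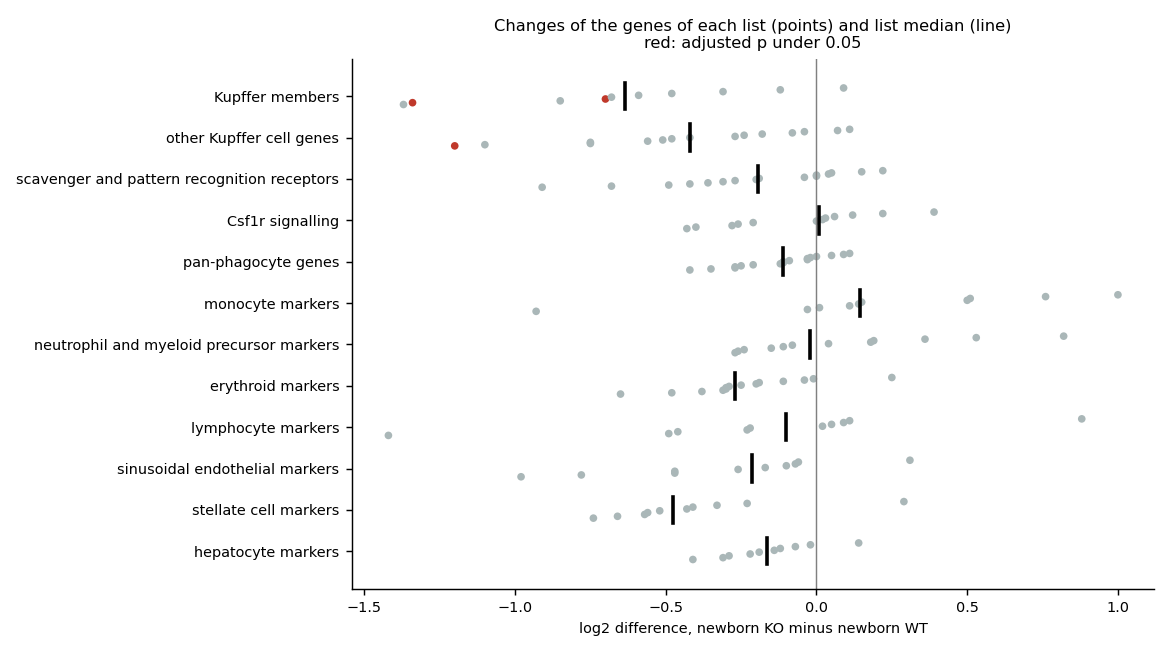
Change in newborn knockouts minus newborn wild types for every tested gene of each list (points, log2 scale), with the list median as a line and genes with a limma adjusted p under 0.05 in red. Red points are Marco and Csf1r among the members and Spic among other Kupffer cell genes. The members have the lowest median, -0.63, and the monocyte markers the highest, 0.14.

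The gene whose values ran most like the mean of the 10 members over the 22 arrays was C1qb, which encodes a partner chain of C1qa in C1q. Its Pearson correlation with that mean was 0.875 over 22 arrays of 6 groups, 0.939 within the 8 newborn arrays and 0.926 within the 14 adult arrays, among 18369 genes compared. The next were Smc1b (0.849), AK039096 (0.826), Treml4 (0.824), Cd300c2 (0.821), Pcolce2 (0.819), Tmem106a (0.813), Icos (0.802), Smpdl3a (0.800) and Tmem204 (0.788). These values describe likeness over arrays that share groups, slides and a reference RNA, and they carry no test.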

How the data were processed

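Liver RNA of 22 mice in 6 groups was hybridised to 2-colour Agilent arrays, with liver in Cy3 and reference RNA in Cy5 and no dye swap, per the labels. Scans were quantified with Feature Extraction 10.5.1.1 per the file headers, whereas the submitters' processing notes list 8.5.1.1, and which of them made the values is not given in the sources used here. The deposited array files hold median spot and local background intensity per channel, not normalized, with probe positions on mm9 per the file headers. The deposited log10 ratios of the array files and of the series table were computed by Feature Extraction from background-subtracted, dye-normalized signals, and the largest difference between them was 0 on every array.

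Log2 ratios of liver over reference were computed here from the deposited median intensities. Local backgrounds that Feature Extraction marked as outliers were replaced by the array's median background, normexp used an offset of 50, and loess was run within arrays with no step between arrays. Outlier spots were left out and spots of a probe averaged. Of 41174 probes, 32831 were named through RefSeq and 8343 kept the file's name. Probes had to be well above background in the liver channel on at least 4 newborn, 3 adult or 3 of 22 arrays, and the brightest probe of a gene was used. A gene with no value in one group was not tested.

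Groups were compared with limma 3.58.1 in R 4.3.3 (two-sided), with Benjamini-Hochberg adjustment over all genes and a threshold of 0.05. The newborn fit held 8 arrays, the adult fit 14 and the fits across ages 22, with 6, 10 and 16 residual degrees of freedom. The number of arrays limits the precision. Single channels were quantile normalized between arrays. Exact permutation tests over samples can reach 0.0286 with 4 against 4 arrays. The fits were tested on simulated data. Figures were drawn with matplotlib 3.10.9 under Python 3.11.15.

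Replicates are biological ones per the labels, 1 mouse each. All members were named with every probe, from each other list up to 4 genes with the smallest adjusted p in newborns (of which some are printed), and the 10 genes most correlated with the members' mean. Members, lists and the background step were chosen with earlier results of these data known. Alternatives covered background, normalization, single channel, weights, filters, probes, blocks and arrays left out.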

Additional observations from a re-analysis of the deposited data

Results flagged for a closer look

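Among the 40 groups of 4 arrays checked, 3 held a member value far from the other 3, and chance gives about 1 in 20. Vsig4 read 3.03 in newborn knockout 1, against 3.86 to 3.97 in the other newborn knockouts. Csf1r read 1.75 in fasted knockout 2, against 1.28 to 1.35 in the other fasted knockouts. Cd68 read -1.0 in fasted control 2, against -1.72 to -1.63 in the other fasted controls.

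The knockout change differed between adults and newborns, by a test of the difference itself in limma, for 5 pairs of gene and feeding state. In fasted adults minus newborns it was Fcna, by 1.56. In fed adults minus newborns it was Marco by 2.55, Fcna by 1.85, Vsig4 by 1.54 and Cd5l by 1.24. Slide, age, treatment and the way the gene was deleted cannot be told apart in these differences.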

How the results depend on the processing

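The alternatives are counted over the 10 members, and causes were not tested. Fasted knockouts against controls had 0 members called under each alternative run. In newborn knockouts against wild types, where 2 members were called, the count was 0 with marked local backgrounds kept (0 of all genes called), 1 with median centring, 1 with a filter on both channels, 1 with all probes tested, 4 in the fit of all 22 arrays, 5 in the liver channel alone, 5 with array weights, 6 with scaling between arrays and 4 without wild type 1 and knockouts 1 and 4. All genes called rose as well, to 447, 890, 833 and 575 under the fit of 22 arrays, the liver channel, weights and scaling, against 249 in the reported fit, and were 155 without those 3 arrays, 104 with median centring, 159 with the filter on both channels and 278 with all probes. Scaling between arrays and leaving out those 3 arrays were chosen after seeing the data. Without single arrays 1 to 2 members were called, where all genes called ran from 65 (without wild type 3) to 426 (without wild type 1). The replicate number as a block gave 5 members and 346 genes (249 without it), but same-numbered newborns correlated at 0.49, 0.34, 0.39 and -0.23, knockouts 3 and 4 correlated best with another number, and the samples share only a number. The block moved no other count of members by over 1.5 times.

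The next counts are of members only. All genes called under the same settings are not given here, so the counts do not set members apart from other genes. In the reported fits 36.8% of all genes were called for fasted against fed controls and 57.7% for fed controls against newborn wild types. With marked backgrounds kept, members called were 0 for fasted against fed controls, 1 for fasted against fed knockouts, 3 for fasted and 2 for fed controls against newborn wild types, 2 for fed against newborn knockouts, and 0 for both differences of knockout changes. Feature Extraction's processed signals gave 3 for fasted against fed knockouts, 3 for fasted controls against newborn wild types and 2 for the fed difference. Median centring gave 7 for fasted against fed controls, 10 for fed controls against newborn wild types and 1 for the fed difference. The liver channel alone gave 2 for fasted against fed knockouts and 2 for each difference. Array weights gave 2 for the fasted difference. Scaling between arrays gave 7 for fasted against fed controls, 9 for fed controls against newborn wild types and 6 for the fasted difference. Without single arrays, fed knockouts against controls had 0 to 3 (3 without fed knockout 3), fasted against fed knockouts 3 to 5, the fasted difference 1 to 4 (4 without fasted control 2, 2 without fasted knockout 3) and the fed difference 1 to 4 (1 without fed control 3, 2 without wild type 2, wild type 3, fed control 2 or fed knockout 1).

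Some changes turned sign, and changes called in the reported fits were among them. In newborns Timd4 was -1.52 with processed signals (limma adjusted p = 0.00761), -0.02 with median centring, -0.06 with weights, -0.20 with scaling, -0.32 without wild type 1 and knockouts 1 and 4, and -0.08 to 0.21 without single arrays, and C1qa was 0.02 with median centring. In fasted knockouts against controls, with backgrounds kept Clec4f was 1.06 and Vsig4 1.97, with processed signals C1qa was -0.01 and Cd5l -0.17, in the liver channel Cd68 was -0.37, Clec4f 0.12 and Vsig4 0.19, with scaling Clec4f was 0.22 and Vsig4 0.19, within slide 3 Clec4f was 0.01 and Timd4 -0.11, and without single arrays Clec4f was -0.21 to 0.01. In fed knockouts against controls Csf1r was -0.05 with median centring and with slide as a block, -0.15 within slide 6 and -0.02 to 0.31 without single arrays, and Adgre1 was -0.08 within slide 6. For fasted against fed controls with backgrounds kept C1qa was -0.62 and Vsig4 -1.01. For fasted against fed knockouts C1qa was -0.13 with processed signals, and Clec4f was 0.10 in the liver channel and 0.70 with scaling. For fasted controls against newborn wild types Timd4 was -0.43 and Vsig4 -0.61 with backgrounds kept, Csf1r was 0.09 in the liver channel, and Timd4 was -0.02 and Vsig4 -0.56 with scaling. For fed controls against newborn wild types C1qa was 0.10 with processed signals. For fasted against newborn knockouts Cd5l was -0.16 with scaling. For fed against newborn knockouts Cd5l was -0.03 and Clec4f -0.20 with median centring, and with scaling Cd5l was -1.36, Clec4f -1.18 and Vsig4 -0.15. Quantiles of average intensity leave ratios as they are by construction. Signal over background limits Timd4 and Cd68 in fed livers, and the reference signal limits Timd4 throughout.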
